A study of Mus musculus with 3 samples.

Results

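Expression of 10 genes of fibroblast growth factor (FGF) signalling was read in a mouse kidney cell line given vitamin D hormones. They were the ligand genes Fgf1, Fgf2, Fgf7 and Fgf9, the receptor genes Fgfr1 to Fgfr4 and the feedback genes Spry2 and Spry4. Their probes were taken as every non-control probe that the array design assigns to one of these 10 symbols, which gave 23 probes among the probes of 36335 named genes. The 10 genes were chosen by their measured differences between the hormone arrays and the vehicle array, together with their place in the pathway, so those differences are given as a description. The cells were mpkDCT, a line from the mouse distal convoluted tubule, and all of them carried a CRISPR-Cas9 knockout of Cyp27b1, the kidney enzyme that turns calcidiol into calcitriol. One group received vehicle, another calcitriol (1,25(OH)2D3, the active hormone) at 1e-07 M, and the third calcidiol (25(OH)D3, its precursor) at 1e-07 M. Per the labels, exposure lasted 24 h and the cells had been moved 24 h earlier to their assay medium, which lacked phenol red and held 2% charcoal-stripped serum. The sources used here do not say whether the knockout line was 1 clone, and an unexplained tag, siCT, stands in all 3 titles. The label text of the third sample writes the compound once with another hydroxyl group, and its treatment tag, calcidiol, was used. Each group had 1 array, so no difference below has a replicate check or a test.

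Most FGFs are secreted ligands that bind FGF receptor tyrosine kinases at the cell surface. They bind together with heparan sulfate or, for the hormone-like FGFs, with Klotho proteins. Bound receptors phosphorylate the adaptor Frs2, which recruits Grb2 and Sos and turns on Ras, Raf, Mek and Erk. Erk then switches on early genes, among them genes of the Sprouty family, whose products damp the same cascade. In the kidney, FGF signals pattern the ureteric bud and nephron during development, and in the adult tubule Fgf23 acts through FGF receptors and Klotho to control phosphate and vitamin D.

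The signals come from probes of 60 bases, and where a probe sits decides which part of a transcript it reads. Coordinates are those of the array design on mm9. No mm9 gene annotation was used here, so exons and UTRs were not assigned. The members that differed most, and those whose probes disagreed, are shown first. For Fgfr1, the last 30 bases of the brightest probe (A_55_P2057777, chr8:26685072-26685131, plus strand) hold a polyadenylation hexamer, in capitals, while the whole sequence of A_65_P11598 (chr8:26682852-26682911), upstream of it on the same strand, holds none.
Fgfr1 A_55_P2057777, last 30 bases: tATTAAAaacaaacgaacagaaagaaaaaa
Fgfr1 A_65_P11598: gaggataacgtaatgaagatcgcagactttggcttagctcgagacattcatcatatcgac
The only Fgf7 probe (A_55_P2789997, chr2:125916134-125916193, plus strand) also holds a polyadenylation hexamer near its end. The Fgfr2 probe that gave a signal (A_55_P2094881, chr7:137307473-137307532, minus strand) ends in a stop codon, TGA, in capitals.
Fgf7 A_55_P2789997, last 30 bases: cctctgtgattacagcATTAAActctactt
Fgfr2 A_55_P2094881: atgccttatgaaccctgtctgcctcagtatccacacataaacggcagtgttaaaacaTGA
The 2 brightest Fgfr4 probes lie side by side (A_51_P408100, chr13:55269977-55270036, and A_55_P2120055, chr13:55270033-55270092, plus strand). They share 4 bases, in capitals, so they read neighbouring stretches of the same strand.
Fgfr4 A_51_P408100, last 30 bases: aaaggggcatcagctctggtgtccctGAGA
Fgfr4 A_55_P2120055, first 30 bases: GAGAgacgagaagcctgtgggaacgacaga
The brighter Fgfr3 probe (A_55_P1996578, chr5:34079649-34079708, plus strand) holds a polyadenylation hexamer, and the dimmer one (A_65_P06147) spans an intron, with its ends at chr5:34077856-34078090.
Fgfr3 A_55_P1996578, last 30 bases: ttactttccaaaaAATAAAgagataactgg
Fgfr3 A_65_P06147: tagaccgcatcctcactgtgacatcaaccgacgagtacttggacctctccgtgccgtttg
Fgf2 is shown as a member with no signal, through the probe A_51_P399845 that spans an intron (chr3:37247934-37295153, plus strand).
Fgf2 A_51_P399845: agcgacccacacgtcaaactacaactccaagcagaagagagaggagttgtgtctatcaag

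Fgf1 and Spry4 lie on chromosome 18, and their probes are given by values only. Of the 23 probes, 11 were well above background on all 3 arrays and 10 on none. Fgf1, Fgf7, Fgfr1, Fgfr2, Fgfr3, Fgfr4 and Spry2 were read on every array. Fgf2, Fgf9 and Spry4 had no probe well above background on any array. Each gene is represented by its brightest probe. Its differences are log2 differences of processed signals after subtraction of each array's 75th percentile, with an error taken from the scanner's own signal error, which leaves out the variation between cultures. That error was 0.20 at the median gene in each comparison and nearly the same at the bright genes named below. It is not a spread measured over replicates. Signals of different probes are not compared, because probes differ in brightness for reasons other than RNA level. Each array is a bulk sample, so fewer cells of a kind and less RNA per cell cannot be told apart.

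**Figure D1:**
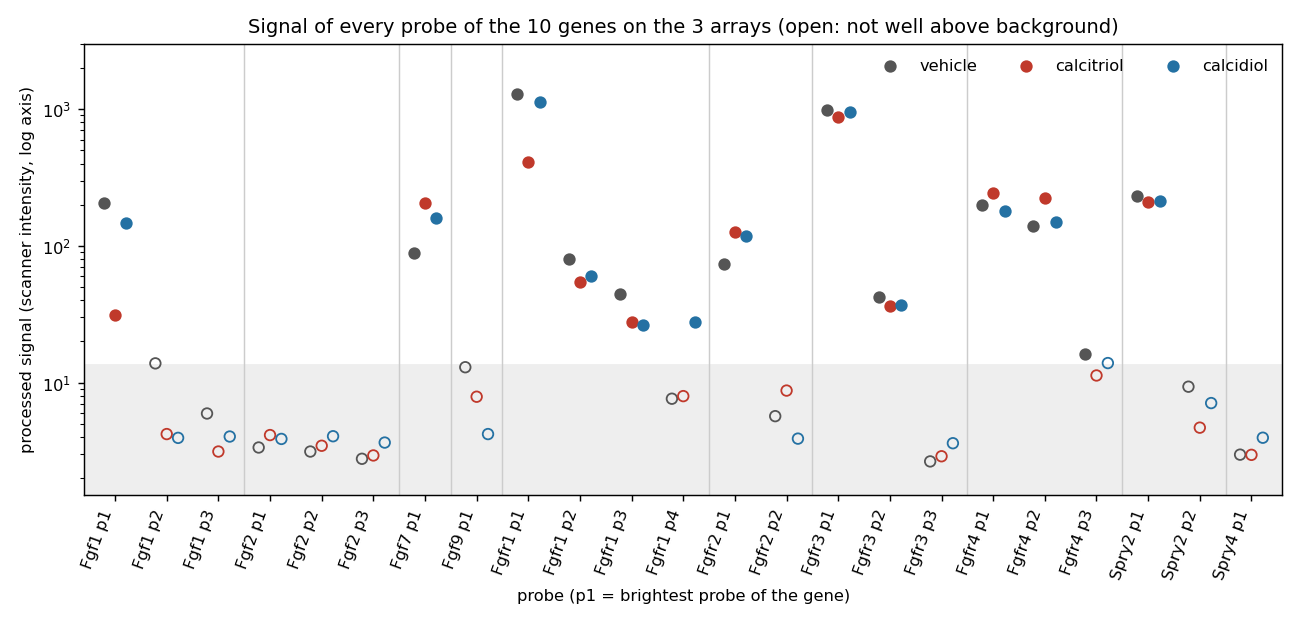
Processed signal (scanner intensity, log axis) of each of the 23 probes on the vehicle, calcitriol and calcidiol arrays, with p1 the brightest probe of each gene. Filled points were well above background and open points were not; the grey band ends at the lowest signal of any detected probe. The calcitriol points of Fgf1 p1 (31.5) and Fgfr1 p1 (407.9) lie below their partners, while the vehicle point of Fgf7 (88.3) lies below both hormone points.

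Each array held 59305 non-control spots, of which 49.7% to 51.0% were well above background, and no spot was saturated. The single Cyp27b1 probe gave no signal well above background; where it lies relative to the edited site is not stated, so it does not check the knockout. Cyp24a1, the vitamin D-degrading enzyme and a classic calcitriol target, was undetected with vehicle and had signals of 5443 with calcitriol and 288.5 with calcidiol. The defining transporter gene of the distal convoluted tubule, Slc12a3, gave no signal well above background, nor did Trpm6, Klhl3, Kl, Calb1 and Emx1. Wnk1, Wnk4 and Stk39 were detected on every array, and Pvalb with each hormone (20.1 and 18.8) but not with vehicle (12.8). Of 10 markers of other tubule segments, 4 were detected on every array: Lrp2, Aqp1, Aqp2 and Scnn1a. The rest of these, among them Slc34a1, Umod and Slc12a1, were not detected. Epithelial markers were mostly undetected too: Cdh1, Epcam, Krt8, Krt18 and Krt19 had no signal above background, and 1 of 10 was detected with vehicle and 2 of 10 with each hormone. Of 10 fibroblast and mesenchyme markers, 5 were detected on every array: Vim, Acta2, Postn, Dcn and Col1a1. Col1a2, Col3a1, Pdgfra, Pdgfrb and Lum were detected on none. The summed signals of this list were 19016, 18662 and 19914 for vehicle, calcitriol and calcidiol. Vim and Acta2 made up most of each sum, so the sums do not show the lower Postn, Dcn and Col1a1 signals with calcitriol given below. Of 5 leukocyte markers, 4 were detected on every array (summed signals 3156, 2788 and 3537), and of 5 endothelial markers, 1 was. The labelled tubule type was therefore not borne out by Slc12a3 and most of its other listed markers. Some markers of kidney tubule, of mesenchyme and of leukocytes were detected, so these markers do not settle the cell type.

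With calcitriol, 3 of the 7 measured genes were at least 2-fold apart from vehicle: Fgf1 and Fgfr1 were lower and Fgf7 was higher. In this comparison 2.59% of 16653 genes were at least 2-fold apart, 0.961% higher (160 genes) and 1.63% lower (271 genes). With arrays centred on the median, 222 were higher and 183 lower. With calcidiol, 0 of the 7 genes were at least 2-fold apart, where 0.997% of 16646 genes were, 0.853% higher and 0.144% lower. Because these contrasts were used to choose the genes, nothing is read from the counts. Both comparisons share the vehicle array, so a high or low vehicle signal would move both differences of a gene the same way, and the values are given side by side.

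Among the ligands, Fgf1 stood lowest. Fgf1 (NM_010197) encodes acidic FGF, which binds all FGF receptors. Its brightest probe had processed signals of 205.2 with vehicle, 31.5 with calcitriol and 146.8 with calcidiol. The calcitriol signal was low and still well above background, and the calcidiol signal lay between the others, nearer to vehicle. The log2 difference from vehicle was -2.74 ± 0.25 (scanner error) with calcitriol, a 6.67-fold lower signal, and -0.59 ± 0.21 with calcidiol, a 1.51-fold lower one. In rank, Fgf1 was number 6 from the lowest of 16653 genes with calcitriol and number 209 of 16646 with calcidiol. The other Fgf1 probes, A_52_P538673 and A_55_P2728202, stayed below detection on all arrays, with the highest signal 13.8 for the latter with vehicle, so Fgf1 rests on 1 probe. The spot lay 23 rows or columns from the array edge, and genes read from spots within 5 rows and columns of it had a median calcitriol difference of -0.15. The size depended on how low signals are treated: with normexp background correction and quantile normalisation the calcitriol difference was -1.46, and with 32 added to each signal before log2 it was -1.93.

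Fgf7 stood highest among the members. Fgf7 (NM_008008) encodes keratinocyte growth factor, usually made by mesenchymal cells and bound by the epithelial splice form of Fgfr2. Its only probe had processed signals of 88.3 with vehicle, 207.4 with calcitriol and 161.1 with calcidiol. Both hormone signals were high against vehicle, and the calcitriol one was the higher. The log2 difference from vehicle was 1.20 ± 0.21 with calcitriol, a 2.30-fold higher signal, and 0.76 ± 0.21 with calcidiol, a 1.69-fold higher one. In rank, Fgf7 was number 121 from the highest with calcitriol and number 289 with calcidiol. Its calcitriol difference went under 2-fold with normexp and quantile normalisation (0.90) and with the offset of 32 (0.96).

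Fgf2 and Fgf9 gave no measured difference. Fgf2, basic FGF, had 3 probes with signals from 2.77 to 4.13 over all arrays, and none was well above background. Fgf9, a ligand that sustains nephron progenitors in the embryo, had 1 probe, with signals of 12.9, 7.9 and 4.2 for vehicle, calcitriol and calcidiol. The lowest signals well above background were 13.4, 13.8 and 17.9 on those arrays, so levels of these genes below that were not detectable.

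Of the receptor genes, Fgfr1 differed most, and its probes disagreed. Fgfr1 (NM_010206) encodes the receptor that, with Klotho, binds Fgf23. Its brightest probe, A_55_P2057777, had processed signals of 1290 with vehicle, 407.9 with calcitriol and 1125 with calcidiol. Only the calcitriol signal was low. The log2 difference from vehicle was -1.69 ± 0.20 with calcitriol, a 3.24-fold lower signal and number 34 from the lowest of all genes, and -0.31 ± 0.20 with calcidiol. A_65_P11598 had signals of 80.6, 54.7 and 60.7 for vehicle, calcitriol and calcidiol, and differences of -0.59 ± 0.22 with calcitriol and -0.52 ± 0.23 with calcidiol. The dimmest of the probes detected on all arrays had signals of 44.3, 27.7 and 26.2, and differences of -0.71 ± 0.27 and -0.87 ± 0.31. So all 3 probes were lower with both hormones, but the brightest alone passed 2-fold and the brightest alone separated calcitriol from calcidiol. Averaged over the 3 probes, the calcitriol difference was -0.998, just under 2-fold. The fourth probe, A_55_P2506940 (chr8:26686086-26686145), went another way: it was well above background with calcidiol alone, at 27.5, and had signals of 7.6 with vehicle and 8.0 with calcitriol.

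Fgfr2 was higher with both hormones by less than 2-fold. Its product, in the epithelial splice form, is the receptor of Fgf7, and the probe shown reads the end of the coding sequence, which does not tell that form from the mesenchymal one. Signals were 73.5 with vehicle, 126.2 with calcitriol and 118.7 with calcidiol. Both hormone arrays lay above vehicle and close to each other. The log2 differences from vehicle were 0.75 ± 0.22 with calcitriol, a 1.68-fold higher signal, and 0.58 ± 0.22 with calcidiol. A second Fgfr2 probe, A_52_P158800, stayed below detection on all arrays (3.9 to 8.7).

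Fgfr3 stayed near vehicle, and the Fgfr4 probes differed in size. Fgfr3 encodes the receptor best known for restraining bone growth, and its brightest probe had signals of 994.2, 878.8 and 949.1 for vehicle, calcitriol and calcidiol. The differences from vehicle were -0.21 ± 0.20 with calcitriol and -0.18 ± 0.20 with calcidiol. Its second probe, A_65_P06147, gave signals of 42.1, 36.2 and 36.9 and differences of -0.25 ± 0.25 and -0.30 ± 0.27, so both Fgfr3 probes showed small differences of about the size of the scanner error. Fgfr4, the receptor of bile acid control in liver, had signals of 200.7, 242.9 and 181.1 at A_51_P408100, and differences of 0.24 ± 0.21 with calcitriol and -0.26 ± 0.21 with calcidiol. The neighbouring probe A_55_P2120055 had signals of 140.7, 222.9 and 149.9 and differences of 0.63 ± 0.21 and -0.02 ± 0.21. The calcitriol array was the highest at both Fgfr4 probes, by less than 2-fold. The remaining Fgfr4 probe, A_52_P144363, was well above background with vehicle alone (16.2), and the remaining Fgfr3 probe, A_55_P2150422, on no array.

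Of the feedback genes, Spry2 stayed near vehicle and Spry4 was not detected. Sprouty proteins block signalling between the receptor and Erk. Spry2 had signals of 231.9 with vehicle, 210.5 with calcitriol and 214.4 with calcidiol at A_52_P368532 (chr14:106291385-106291444, minus strand). The 3 arrays were close, and the differences from vehicle were -0.17 ± 0.21 and -0.23 ± 0.21. The other Spry2 probe, A_51_P445153, carried an outlier flag, was left out and stayed below detection on all arrays (4.7 to 9.3). Spry4 had 1 probe, with signals of 3.0, 3.0 and 4.0, none of them well above background.

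**Figure D2:**
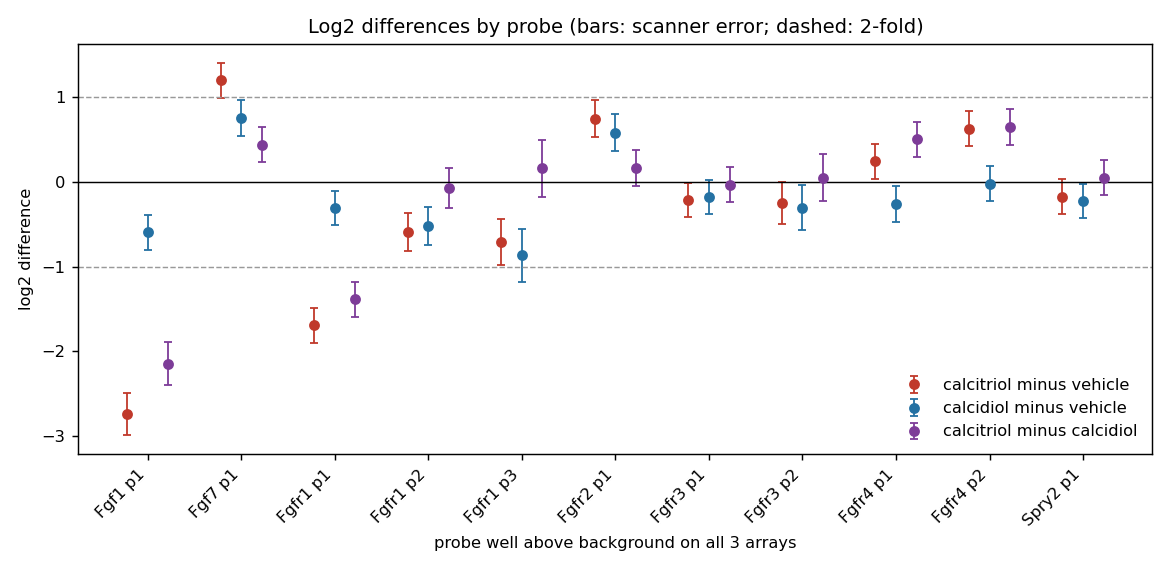
Log2 differences (vertical axis) for the 11 probes well above background on all 3 arrays, with calcitriol minus vehicle in red, calcidiol minus vehicle in blue and calcitriol minus calcidiol in purple. Bars are the scanner error of 1 array against 1 array and dashed lines mark 2-fold. Fgf1 p1 (-2.74), Fgfr1 p1 (-1.69) and Fgf7 p1 (1.20) pass the lines with calcitriol, and Fgfr1 p2 and p3 do not.

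The hormones differ by the hydroxyl group that Cyp27b1 adds, and they were given at the same dose for the same time. Set directly against calcidiol, calcitriol gave 2 of the 7 measured genes at least 2-fold lower and 0 at least 2-fold higher. Of 16499 genes, 1.87% were at least 2-fold apart, with 1.41% lower (232 genes) and 0.467% higher (77 genes). With arrays centred on the median, 133 were lower and 133 higher. This contrast follows from the vehicle contrasts used to choose the genes, so nothing is read from its counts either. Fgf1 was 4.42-fold lower with calcitriol than with calcidiol (log2 difference -2.15 ± 0.26). Fgfr1 was 2.61-fold lower at its brightest probe (-1.39 ± 0.20), while A_65_P11598 and the dimmest detected probe gave -0.07 ± 0.24 and 0.16 ± 0.33. Fgf7 was 1.36-fold higher (0.44 ± 0.21), Fgfr4 1.42-fold higher (0.50 ± 0.21) and Fgfr2 1.12-fold higher (0.17 ± 0.21). Fgfr3 (-0.03 ± 0.20) and Spry2 (0.05 ± 0.21) were within the scanner error. With 1 array a group, these values do not show that the compounds act alike or unlike on any of these genes.

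**Figure D3:**
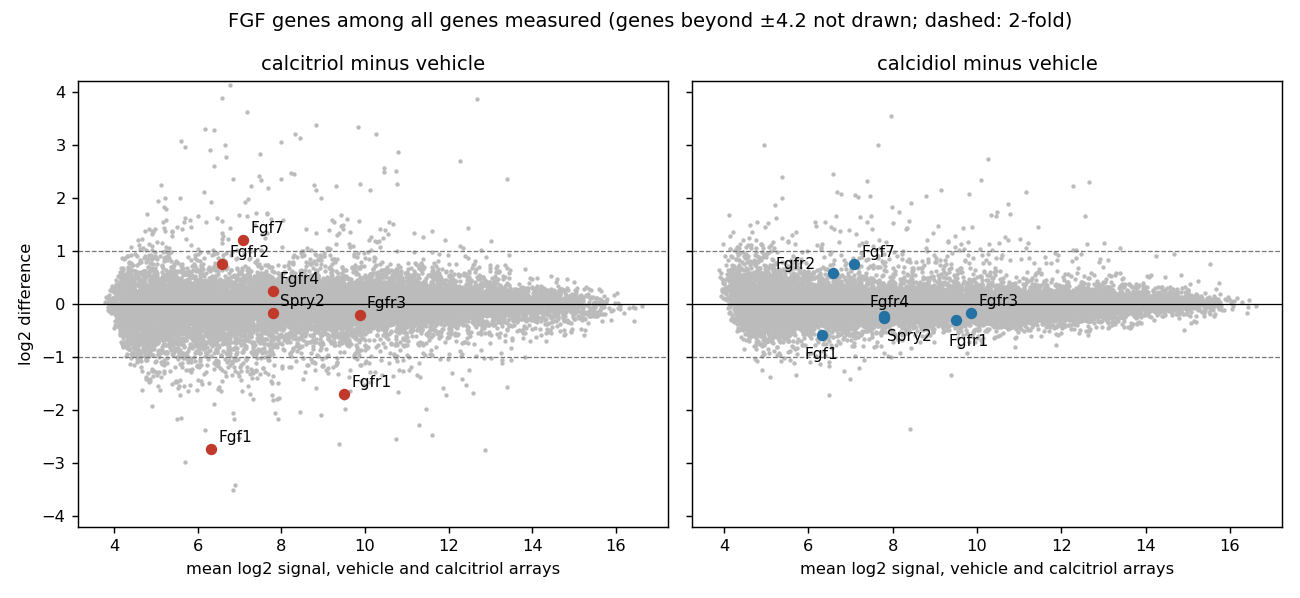
Log2 difference from vehicle (vertical axis) against the mean log2 signal of the vehicle and calcitriol arrays (horizontal axis), for calcitriol on the left and calcidiol on the right. Grey points are genes measured with calcitriol and vehicle, and on the right also with calcidiol. Genes beyond the limits of the vertical axis are not drawn. Coloured points are the 7 measured FGF genes, and dashed lines mark 2-fold. Fgf1 and Fgfr1 lie under the lower line and Fgf7 above the upper one with calcitriol; with calcidiol all 7 lie between the lines.

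By the distance between pairs of differences (calcitriol and calcidiol, each from vehicle), the genes most like Fgf1 among 16378 were Rad21, Dcn, Atp1b2, Gc and Ntsr1, at distances of 0.53 to 0.66. The likeness rests on 2 values from 3 arrays. Dcn, the matrix proteoglycan decorin, had signals of 163.2, 32.4 and 89.6 for vehicle, calcitriol and calcidiol, with differences of -2.37 and -0.98. Rad21, Atp1b2 and Gc were read from spots 1, 5 and 7 rows or columns from the array edge. Dcn belongs to the 10 fibroblast and mesenchyme markers, whose other members Postn (1647, 272.1 and 707.2) and Col1a1 (243.0, 102.5 and 152.4) were also lowest with calcitriol, while Vim (9242, 9905 and 11934) was not. The probes of Acta2 disagreed: the brightest, 2 rows or columns from the array edge, had signals of 7699, 8326 and 7001, and another differed by -1.09 from vehicle with calcitriol and by 0.03 with calcidiol. The part of such cells in the Fgf1 values was not tested.

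The rest of the pathway was read through 6 lists of 95 other genes, of which 75 were measured with calcitriol and vehicle. With calcitriol, 5 were at least 2-fold apart, 0 higher and 5 lower, where 2.59% of all genes were apart, 0.961% higher and 1.63% lower. These counts leave out genes undetected on either array. By bounds, 1 such gene of the lists was at least 2-fold higher, Fgf5 (at least 7.89-fold), and 0 were lower. With arrays centred on the median, which raised every calcitriol difference by 0.12, the split was 2 higher and 3 lower. Gpc4 and Errfi1 were then past 2-fold, and Egr1 and Fgf21 no longer were. With calcidiol, 1 of 74 was at least 2-fold apart, Hpse, where 0.997% of all genes were. The median difference was -0.15 with calcitriol and -0.09 with calcidiol over these genes, against -0.004 and -0.01 over all genes.

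Of 18 other genes of the FGF family, listed as ligands by name, 6 were measured with calcitriol. Of these, 5 lay below 0, with a median of -0.43, where 50.7% of all genes lay below 0. With arrays centred on the median, 5 lay below 0 as well, against 33.0% of all genes. Fgf21, the metabolic hormone, was the lowest: its signals were 108.0, 53.6 and 77.1 for vehicle, calcitriol and calcidiol, and its differences -1.04 and -0.60. Fgf18 was the highest with calcitriol (0.07 ± 0.21). Fgf23, the phosphate hormone normally made by bone, had signals of 812.1, 749.6 and 997.2 and was the highest with calcidiol (0.19). Fgf5, known for ending hair growth, was well above background with calcitriol alone (6.3, 107.9 and 12.6), at least 7.89-fold higher than with vehicle and at least 6.38-fold higher than with calcidiol. The genes of this list thus lay on both sides of vehicle.

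Co-receptors and cofactors hold FGFs at the cell surface or bind their receptors. Of 14 measured, 10 lay below 0 with calcitriol (median -0.22) and 11 with calcidiol (median -0.28), against 50.7% and 52.3% of all genes. With arrays centred on the median, 8 lay below 0 with calcitriol (median -0.09), against 33.0% of all genes. Under the same scaling 12 lay below 0 with calcidiol (median -0.34), against 65.4%. Flrt1 and Flrt2 encode membrane proteins that bind FGF receptors. Flrt1 had signals of 381.2, 172.9 and 249.1 and differences of -1.17 with calcitriol and -0.73 with calcidiol, with another probe at -0.89 and -0.32. Flrt2 had signals of 73.9, 33.1 and 45.5 and differences of -1.19 and -0.81, with another probe at -0.07 and -0.54. Gpc4, a glypican that carries heparan sulfate, stood out in the direct comparison, 1.18 higher with calcitriol than with calcidiol on the log2 scale, from signals of 858.3, 1627 and 759.3. Another Gpc4 probe gave 0.94. Gpc4 was also the highest of the list with calcitriol against vehicle (0.89). The highest with calcidiol was the syndecan gene Sdc3 (0.71).

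Enzymes that build or trim heparan sulfate stayed close to vehicle, with medians of -0.03 and 0.01 over 10 measured genes. With calcitriol they ran from -0.20 (Hs2st1, a sulfotransferase) to 0.29 (Ext2, a chain polymerase), and with calcidiol the lowest was Ext1 (-0.17). Hpse, the heparan sulfate-cleaving heparanase, had signals of 173.2, 164.8 and 546.1 and a calcidiol difference of 1.55. That spot lay in the outermost row or column of the array, and another Hpse probe differed by -0.04. The adaptors and the Ras-MAPK cascade were also near vehicle: 0 of 20 were at least 2-fold apart, with medians of -0.03 and 0.03. They ran from Frs3, an adaptor (-0.35 and -0.42), to Ksr1, a scaffold (0.68 and 0.66, with another probe at -0.18 in both).

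Genes downstream of Erk mostly lay below vehicle with calcitriol. Of 14 measured Erk-responsive genes, 13 lay below 0 (12 under 4 of 5 other scalings), with a median of -0.53, where 50.7% of all genes lay below 0. With calcidiol, 11 of 14 lay below 0, with a median of -0.21, against 52.3% of all genes. Centred on the array median, 11 did as well, against 65.4% of all genes. Under those 5 scalings the calcitriol median ran from -0.51 to -0.41. Etv1, an ETS transcription factor, had signals of 46.7, 17.9 and 29.8 and differences of -1.42 ± 0.36 and -0.76 ± 0.29. Its calcitriol signal was close to the lowest detected on that array (13.8). Egr1, an immediate-early transcription factor, had signals of 2216, 1046 and 1861 and differences of -1.12 and -0.36. Myc, the growth regulator, was the highest, with signals of 356.4, 661.8 and 545.7 and differences of 0.86 and 0.50. Spsb1 (-0.001 ± 0.23) and Etv5 (-0.14 ± 0.23) were within the scanner error with calcitriol. These lists were chosen with results of these data known, and nothing particular to them is drawn from the counts.

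Feedback inhibitors other than Spry2 and Spry4 had median differences from vehicle of -0.21 with calcitriol and -0.06 with calcidiol. Of 11 measured, 9 lay below 0 with calcitriol and 7 with calcidiol, against 50.7% and 52.3% of all genes. With arrays centred on the median, 7 lay below 0 with calcitriol, against 33.0% of all genes, and 8 with calcidiol, against 65.4%. With normexp and quantile normalisation, 7 lay below 0 with calcitriol, against 49% of all genes. The count at least 2-fold apart was 0 with either hormone in the main scaling. Errfi1 passed 2-fold with calcitriol when arrays were centred on the median. Spry1, a Sprouty gene, was lowest with calcitriol, with signals of 2028, 1224 and 1644 and differences of -0.76 and -0.41. Errfi1, an inhibitor of the EGF receptor, was highest, with signals of 3906, 7449 and 5108 and differences of 0.90 and 0.28. With calcidiol the range ran from Spred3, a Sprouty-related inhibitor (-0.45), to Dusp5, an Erk phosphatase (0.50).

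**Figure D4:**
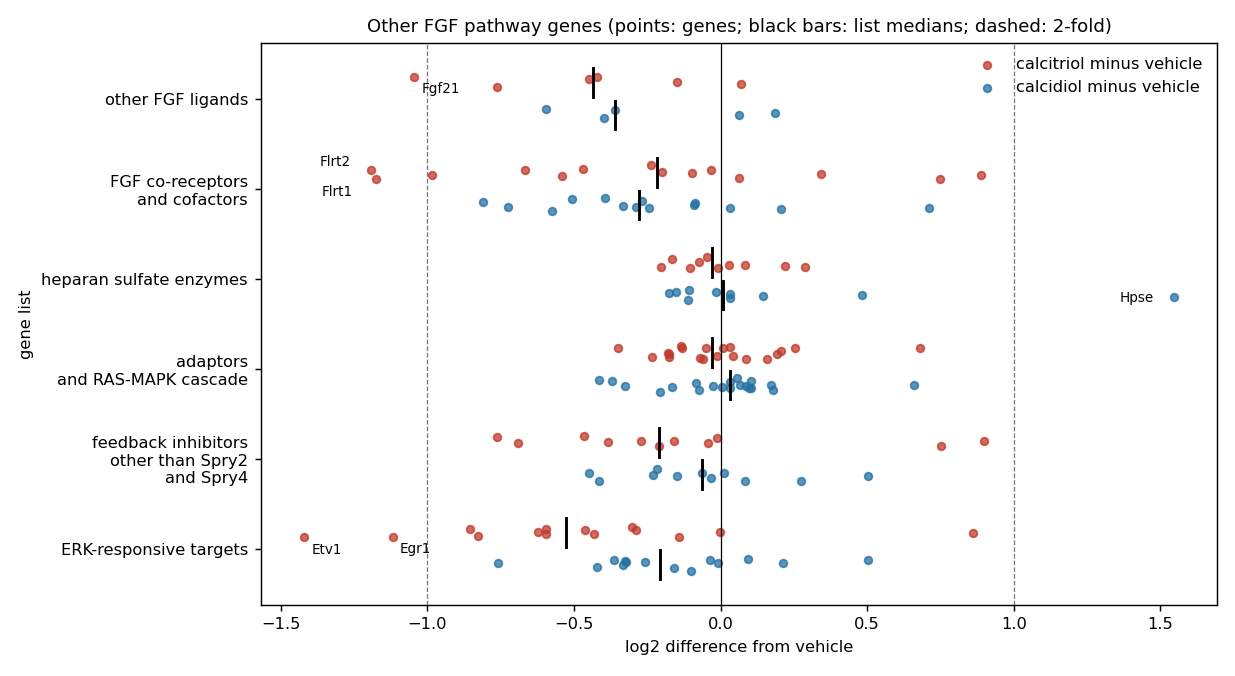
Log2 difference from vehicle (horizontal axis) of each measured gene in 6 FGF pathway lists (vertical axis), with calcitriol in red and calcidiol in blue; black bars are list medians, dashed lines mark 2-fold, and genes past 2-fold are named. The Erk-responsive list has the lowest calcitriol median (-0.53), and heparan sulfate enzymes and adaptors centre near 0. Fgf5, with a bound and no measured difference, is not drawn.

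Promoters of Fgf2, Fgf7, Fgf9, Fgfr2, Fgfr3, Fgfr4 and Spry2 (8 promoters) were found in a RefSeq table of GRCm38.p6, each window 300 bases long. Those of Fgf1, Fgfr1 and Spry4 were not searched. The vitamin D receptor binds pairs of hexamers, and 4 of them were searched on both strands: AGGTCA, held by 16.3% of all promoters in the table, AGTTCA, held by 14.0%, GGTTCA, held by 10.4%, and GGGTCA, held by 13.7%. A direct pair of any of them with 3 bases between was searched too. None of the 8 promoters searched held such a pair, which 0.04% of all 32851 promoters did. At least 1 of the 4 single hexamers was in 5 of the 8 promoters, those of Fgf2, Fgf7, Fgfr2, Fgfr3 and Spry2, and in 43.7% of all promoters. A match is a description of these letters and not a binding site.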

How the data were processed

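Total RNA of 3 samples was labelled with Cy3 and hybridised to 1-colour Agilent mouse arrays. The scanner files deposited by the authors hold the linear intensity of each spot, after background subtraction and detrending by Agilent Feature Extraction (10.7.1.1 per the file headers, 9.5.1.1 per the submitters' processing notes). The arrays shared 1 slide and 1 scan, and array position cannot be told apart from group. The deposited value table, also of linear intensity, served as an alternative; how it was scaled is not given in the sources used.

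Control spots and spots with any feature or background outlier flag were left out, which removed 1489 of 56605 probes. From log2 of the deposited intensity the array's own 75th percentile was taken away, at signals of 371.1 (vehicle), 379.8 (calcitriol) and 400.8 (calcidiol). Among probes kept, 58.29% were named through a RefSeq accession (GRCm38.p6, names only). A difference needed a probe well above background on both arrays. Otherwise a bound was given, from the bright signal over the higher of the dim one and the lowest detected. Probes printed 10 times varied by 3.76% to 9.76% (median coefficient of variation), and the number of arrays limits the precision. Members, lists and alternatives were chosen with earlier results of these data known. Named pathway genes are those at least 2-fold apart in any comparison, those with such a bound, and the highest and lowest of each list. Spsb1 and Etv5, close to vehicle with calcitriol, are named too. The sequence and position of 1 Fgfr1 probe are not reported here. Counting was tested on simulated data. R 4.3.3 with limma 3.58.1, Python 3.11.15, numpy 2.4.6, pandas 2.3.3 and matplotlib 3.10.9 were used.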

Additional observations from a re-analysis of the deposited data

How the results depend on the processing

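No paired analysis was possible because the groups share only replicate number 1. With 1 array a group, no replicate could be left out either. Alternatives that could not move a gene, such as the filters on edge, outlier and dim spots for one read from a single clear spot, say nothing about it. Of those that changed the value with calcitriol against vehicle, Fgf1 was at least 2-fold lower in 5 of 5 (-2.65 to -1.46), Fgfr1 in 5 of 6 (-1.70 to -0.998) and Fgf7 at least 2-fold higher in 3 of 5 (0.90 to 1.32). In the direct comparison Fgfr3 changed sign in 2 alternatives and Spry2 in 1. The cause was not tested, except that fewer probes, other probes or another threshold change the counts by construction.

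Counts of member genes at least 2-fold apart moved as follows. With calcitriol against vehicle the count of 3 became 2 with normexp and quantile normalisation, the offset of 32, the mean over probes or a 3-fold threshold, and 4 at 1.5-fold. With calcidiol against vehicle the count of 0 became 2 at 1.5-fold. In calcitriol against calcidiol the count of 2 became 1 with the mean over probes and 1 at 3-fold. For other FGF pathway genes with calcitriol against vehicle, the count of 5 became 1 with normexp and quantile normalisation, 2 with the offset of 32, 9 with detection on 1 of the arrays, 21 at 1.5-fold and 0 at 3-fold. With calcidiol against vehicle the count of 1 became 2 with detection on 1 array, 0 with the mean over probes, 7 at 1.5-fold, 0 at 3-fold and 0 without the outermost 6 rows and columns. In calcitriol against calcidiol the count of 2 became 1 with normexp, 4 with detection on 1 array, 1 with the mean over probes, 8 at 1.5-fold, 1 at 3-fold and 1 without the outermost 6 rows and columns. For all genes with calcitriol against vehicle, 431 became 197 with normexp, 242 with the offset, 972 with detection on 1 array, 1604 at 1.5-fold and 113 at 3-fold. With calcidiol against vehicle 166 became 80, 83, 675, 693 and 43 under the same settings, and in calcitriol against calcidiol 309 became 160, 160, 851, 1273 and 76.

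Signals near background limit the size of low levels: the calcitriol signal of Fgf1 (31.5) was close to the lowest detected on that array (13.8).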
